A study of Homo sapiens with 12 samples.

Results

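The MHC class I presentation genes examined here were HLA-B, HLA-C and HLA-E, which encode class I heavy chains, B2M, which encodes their light chain, the peptide transporter genes TAP1 and TAP2, the immunoproteasome subunit genes PSMB8 and PSMB9, and NLRC5, which encodes a transactivator of class I genes. They were matched by gene symbol and are 9 of the 58381 genes in the tables, and all 9 were among the 15944 genes that passed the filter on low counts. Polyadenylated RNA was sequenced from HMC-1 cells, a line established from a human mast cell leukemia, after the cultures had been plated in parallel wells. The HMC-1.1 subline has V560G-KIT, the HMC-1.2 subline has V560G-KIT together with D816V-KIT, and HMC-1.3 cells are HMC-1.2 cells in which CRISPR/Cas9 editing had reverted V560G, so that D816V-KIT remains. The 4 groups, which were the HMC-1.1 subline, the HMC-1.2 subline and clones 1 and 2 of HMC-1.3, had 3 libraries each, and no drug or cytokine treatment is given in the labels. Each HMC-1.3 group grew from a single edited cell, so the KIT genotype and the history of a clone cannot be told apart within either group, and the p-values measure the spread between parallel cultures of the same cells.

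Class I molecules display short peptides from a cell's own proteins to CD8+ T cells. The proteasome cuts the proteins, TAP1 and TAP2 together carry the peptides into the endoplasmic reticulum, chaperones there help the heavy chain and beta-2-microglobulin to take up a peptide, and the complex moves to the cell surface. HLA-E presents peptides from the leader sequences of other class I chains and is a ligand of inhibitory receptors on natural killer cells. Interferon raises many of these genes through IRF factors, and NLRC5 acts on the promoters of class I genes, B2M, TAP1 and PSMB9.

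Promoter sequences are shown because the results below concern genes whose promoters are known to share binding motifs. RefSeq windows (GRCh38.p14) were found for 7 of the 9 genes, in 9 windows, and the 250 bases before each start site were searched on both strands. HLA-E and NLRC5 had no window. Capitals mark matches to an IRF-type motif, either GAANNGAAA or a pair of GAAA repeats spaced by 2 bases, and to a kB motif, in which GGGNN is followed directly by TTNCC. Overlapping matches run together in the capitals, and the sequences run 5′ to 3′ on the strand of the gene.
HLA-B, chr6:31357314-31357373, minus strand, ending 134 bases before the start site: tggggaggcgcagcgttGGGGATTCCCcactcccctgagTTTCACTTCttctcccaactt
HLA-C, chr6:31272223-31272282, minus strand, ending 130 bases before the start site: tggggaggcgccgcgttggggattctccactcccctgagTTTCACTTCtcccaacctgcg
B2M, chr15:44711354-44711413, plus strand, ending 103 bases before the start site: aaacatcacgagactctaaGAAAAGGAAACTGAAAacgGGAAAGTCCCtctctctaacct
TAP1, chr6:32853755-32853850, minus strand, ending 50 bases before the start site: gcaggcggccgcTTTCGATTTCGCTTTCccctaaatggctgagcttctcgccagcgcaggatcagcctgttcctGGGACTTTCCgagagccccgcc
TAP2, chr6:32838776-32838835, minus strand, ending 36 bases before the start site: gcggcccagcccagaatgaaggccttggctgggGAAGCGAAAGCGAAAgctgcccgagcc

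An IRF-type motif was thus found upstream of the RefSeq start sites of HLA-B, HLA-C, B2M, TAP1 and TAP2. The gene spans given below come from Gencode 44 and can begin elsewhere. By those spans the bases printed for HLA-B lie within the gene, as do most of those for B2M and part of those for TAP1. The spaced GAAA repeat occurred in 3.0% of all 35116 promoter windows of this length, GAANNGAAA in 6.6% and the kB motif in 5.1%. The HLA-B and HLA-C windows were identical at 226 of 254 aligned positions (89.0%), and the kB match in HLA-B had no counterpart in HLA-C under the letters searched. The windows of PSMB8 and PSMB9 held none of these motifs. TAP1 and PSMB9 are transcribed away from each other from these RefSeq start sites, with 487 bases between them. The bases printed for TAP1 thus also lie upstream of the RefSeq start site of PSMB9. A TGACG motif was found in 6 of the 9 windows (21.2% of all windows) and CCAAT in 5 of 9 (32.0% of all windows). These matches describe letters in the reference and not binding in these cells.

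The libraries held 29225900 to 43181402 counts. Of 10 mast cell markers, 6 had a group mean of at least 10 FPKM (fragments per kilobase of transcript, scaled to library size) in every group, while MS4A2, the beta chain of the IgE receptor, was below 1 FPKM throughout. The summed FPKM of these markers was 2482 to 2517 in HMC-1.2 libraries and 1869 to 2069 in the others. TPSAB1 alone was at 592 FPKM in HMC-1.2 against 29.4 to 44.2 in the other groups, whereas FCER1G was at 1.59 against 10.3 to 94.4. By the adjusted p defined below, 5 of the 10 were higher than in HMC-1.2 and 4 lower in both clone 1 and HMC-1.1. In clone 2 the counts were 5 and 5. The shares of all genes higher and lower were 30.1% and 29.3% in clone 1, 27.2% and 26.5% in HMC-1.1 and 24.7% and 23.8% in clone 2. Of 12 markers of other cell types, 9 were below 1 FPKM in every group, and their summed FPKM was 1.23 to 10.2 per library. The highest sum belonged to replicate 3 of clone 2, where KRT18, an epithelial keratin, was at 7.85 FPKM on 429 counts, against 0 and 3 counts in the other clone 2 libraries. Without that library, 7 of the 9 class I presentation genes passed the adjusted p for clone 2 against HMC-1.2, 8 against HMC-1.1 and 9 against clone 1, where 8 passed in each comparison with it. With all libraries, the shares of all genes higher and lower in clone 2 were 24.7% and 23.8% against HMC-1.2. They were 18.5% and 17.5% against HMC-1.1 and 24.7% and 25.5% against clone 1. Bulk values cannot separate fewer expressing cells from less RNA per cell. The labels mark 3 libraries as resent, in HMC-1.2 (replicate 1), clone 1 (replicate 3) and clone 2 (replicate 1).

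B2M was the most abundant of the 9 transcripts and NLRC5 the least abundant in all 4 groups. In HMC-1.2, mean levels per length were 1764 ± 24.8 FPKM for B2M, 658 ± 11.6 for HLA-B, 424 ± 4.01 for HLA-C and 310.0 ± 4.32 for HLA-E (SD, n = 3). PSMB8 followed at 117 ± 3.82 FPKM, PSMB9 at 48.0 ± 0.80, TAP2 at 33.7 ± 3.16, TAP1 at 31.9 ± 1.13 and NLRC5 at 7.28 ± 0.92. The order was the same in HMC-1.1 and clone 1, and the libraries of neighbouring genes in this order did not overlap, except those of TAP2 and TAP1 in HMC-1.2 and clone 1. In clone 2, TAP1 (37.3 ± 1.13 FPKM) and TAP2 (35.8 ± 1.68 FPKM) changed places with overlapping libraries. B2M ranked between 38 and 65 and NLRC5 between 7773 and 9511 among all genes of a library by FPKM.

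**Figure D1:**
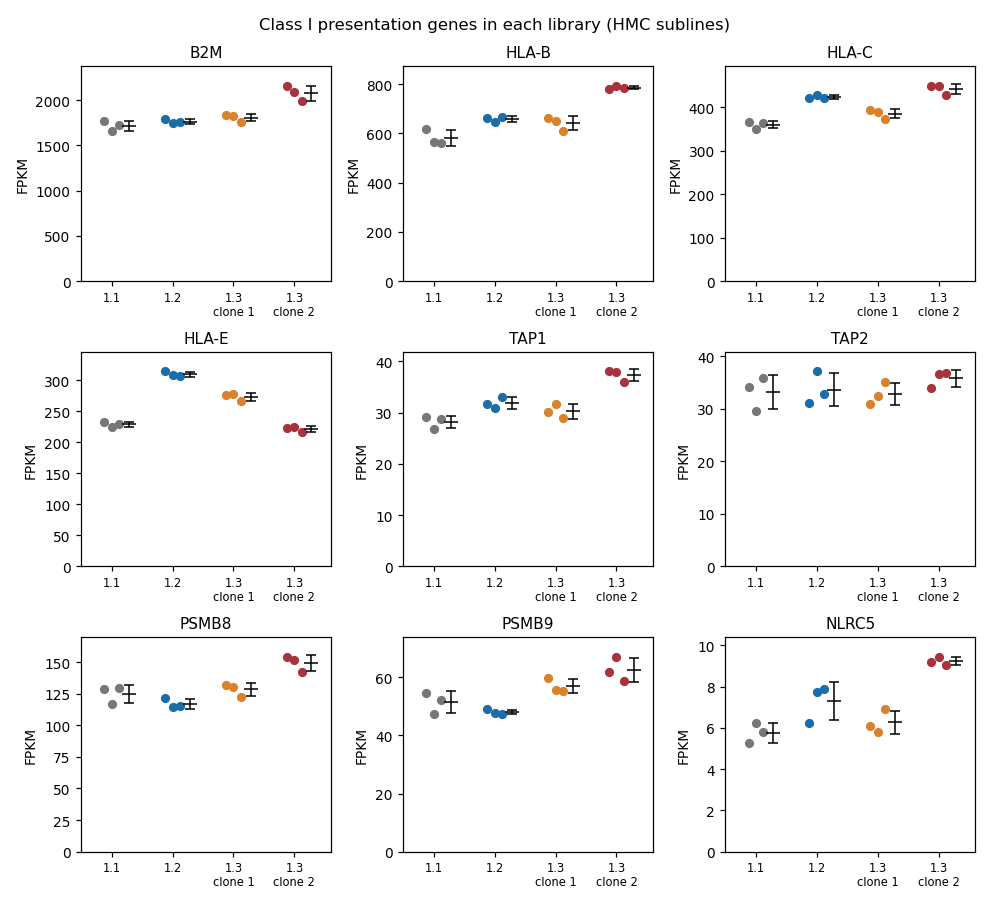
Level of each of the 9 genes in FPKM (vertical axis, starting at 0) in the 3 libraries of each group (points), with the mean and SD beside them (black). The clone 2 libraries lie highest for B2M, HLA-B, TAP1, PSMB8 and NLRC5, whereas HLA-E is highest in HMC-1.2 (306 to 315 FPKM) and lowest in clone 2 (216 to 225 FPKM).

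The transcripts of these genes differed between the sublines by small amounts, and clone 2 was set apart from the other groups in most of them. None of the 9 changed by over 1.5-fold with an adjusted p under 0.05 (from the quasi-likelihood test of edgeR, adjusted by Benjamini-Hochberg over the genes tested, as below) in any of the 6 comparisons. The share of all genes called in this way was 20% for clone 1 against HMC-1.2, 16.5% for clone 2 against HMC-1.2, 17.6% for HMC-1.1 against HMC-1.2, 1.01% for clone 1 against HMC-1.1, 8.19% for clone 2 against HMC-1.1 and 12.6% between the clones. Smaller differences were resolved, because the spread between libraries was low, and the following counts use the adjusted p alone.

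Against HMC-1.2, 7 of the 9 genes were higher in clone 2 and HLA-E was lower, where 24.7% of all genes were higher and 23.8% lower. In clone 1, 5 of the 9 were lower than in HMC-1.2 and PSMB9 was higher, against 29.3% and 30.1% of all genes. HMC-1.1 had 6 lower and 0 higher than HMC-1.2, against 26.5% and 27.2% of all genes. The 9 genes had a median log2 fold change of 0.21 for clone 2, -0.10 for clone 1 and -0.17 for HMC-1.1, and the median of all genes tested was 0.00, 0.01 and 0.01. These 3 comparisons share the HMC-1.2 libraries.

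Comparing the clones directly, 7 of the 9 genes were higher in clone 2 and HLA-E was lower, against 24.7% and 25.5% of all genes, and the median log2 difference was 0.23 (all genes, -0.01). Against HMC-1.1, 8 of the 9 were higher in clone 2, where 18.5% of all genes were higher and 17.5% lower. HLA-B and HLA-E were higher in clone 1 than in HMC-1.1 and none of the 9 was lower, against 8.87% and 9.83% of all genes, and the HLA-B call was lost by limma on FPKM (adjusted p = 0.055). On TMM-scaled CPM (counts scaled to library size), all 3 clone 2 libraries exceeded all other 9 libraries for HLA-B, B2M, TAP1, TAP2, PSMB8 and NLRC5, 6 of the 9 genes, a separation seen in 8.52% of all genes tested. HLA-E was the 1 gene of the 9 with all HMC-1.2 libraries above the rest (17.2% of all genes), and HLA-B and HLA-C were the 2 with all HMC-1.1 libraries below the rest (1.61% of all genes).

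**Figure D2:**
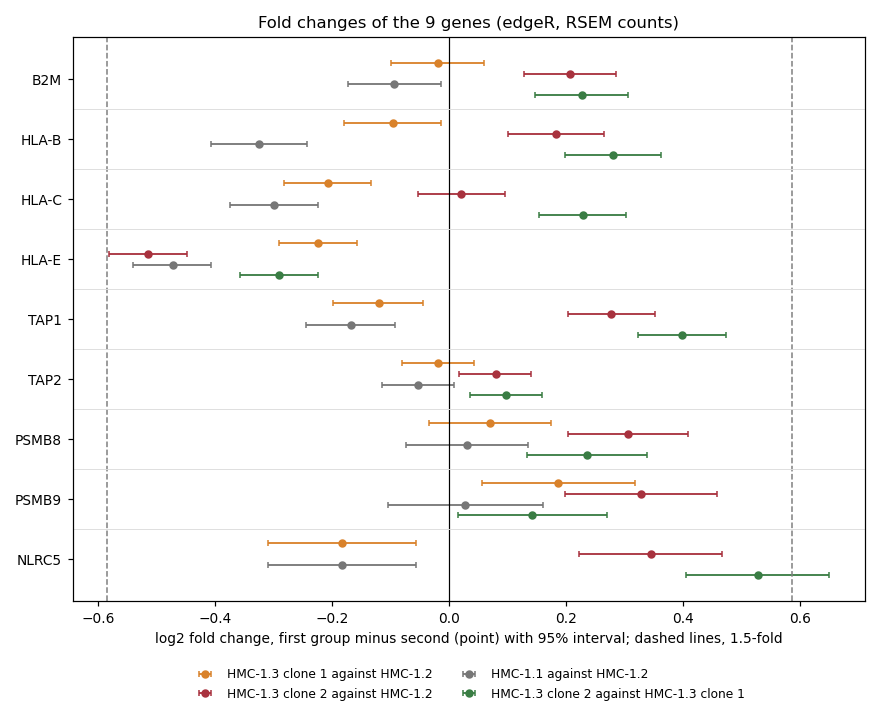
Log2 fold change of each gene (points, horizontal axis) with its 95% interval in 4 comparisons, from the counts of 3 libraries a group; dashed lines mark 1.5-fold. No point lies beyond the dashed lines, clone 2 lies right of 0 for 8 genes against both HMC-1.2 and clone 1, and HLA-E lies left of 0 in all 4 comparisons.

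HLA-B (chromosome 6 of GRCh38, 31353872 to 31367067) stood at 620.0, 565 and 559 FPKM in HMC-1.1, 663, 645 and 666 in HMC-1.2, 663, 651 and 609 in clone 1, and 779, 793 and 786 in clone 2. The clone 2 libraries were the highest and those of HMC-1.1 the lowest, apart from 1 overlap with clone 1. From the counts, HLA-B was higher in clone 2 than in HMC-1.2 by 0.18 on the log2 scale (SE 0.04, adjusted p = 0.00082) and than in clone 1 by 0.28 (SE 0.04, adjusted p = 1.3e-05). It was lower in HMC-1.1 than in HMC-1.2, with a log2 fold change of -0.33 (SE 0.04, adjusted p = 1.9e-06). The difference of clone 1 from HMC-1.2, -0.10 (SE 0.04, adjusted p = 0.04), did not hold when replicate 1 or 2 of HMC-1.2 or replicate 3 of clone 1 was left out (adjusted p = 0.13, 0.071 and 0.15). It was also lost with a term for resent libraries (adjusted p = 0.051) and by limma on FPKM, where HLA-B differed by -0.04 (adjusted p up to 0.48). HLA-B counts rest partly on reads that RSEM divides among similar genes, as do those of HLA-C and HLA-E, since all 12 of their counts were fractional, and all these genes were aligned to reference alleles.

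HLA-C (chromosome 6, 31268749 to 31272130) was measured at 367, 351 and 364 FPKM in HMC-1.1, 421, 428 and 422 in HMC-1.2, 394, 389 and 373 in clone 1 and 449, 449 and 429 in clone 2. HMC-1.2 and clone 2 formed the upper end, with clone 1 between them and HMC-1.1. Clone 1 was lower than HMC-1.2 by a log2 fold change of -0.21 (SE 0.04, adjusted p = 7.4e-05) and HMC-1.1 by -0.30 (SE 0.04, adjusted p = 1.7e-06). Clone 2 differed from HMC-1.2 by 0.02 (95% interval -0.05 to 0.10, adjusted p = 0.67) and exceeded clone 1 by 0.23 (SE 0.04, adjusted p = 4.1e-05).

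HLA-E (chromosome 6, 30489509 to 30494194) was the 1 gene of the 9 that was lower in clone 2 than in HMC-1.2. Like HLA-B, HLA-C, TAP1 and NLRC5, it was also lower in clone 1 and HMC-1.1. The clone 1 calls of HLA-B, NLRC5 and TAP1 were lost in 6, 4 and 2 of 20 alternatives, and the HMC-1.1 call of NLRC5 in 2, whereas those of HLA-E held in all. Levels of HLA-E in each library follow. Its FPKM was 234, 225 and 229 in HMC-1.1, 315, 309 and 306 in HMC-1.2, 276, 279 and 267 in clone 1 and 224, 225 and 216 in clone 2. The HMC-1.2 libraries lay above all others, the clone 1 libraries came next, and those of HMC-1.1 and clone 2 met at the bottom of the range. HLA-E fell by 0.52 on the log2 scale in clone 2 against HMC-1.2 (SE 0.03, adjusted p = 3.7e-10), a 1.43-fold difference and the largest of the 27 differences of the 9 genes from HMC-1.2. The log2 fold change was -0.22 in clone 1 (SE 0.03, adjusted p = 9.1e-06) and -0.47 in HMC-1.1 (SE 0.03, adjusted p = 1.2e-09). Clone 2 was also below clone 1, by -0.29 (SE 0.03, adjusted p = 8.5e-07), but differed from HMC-1.1 by -0.04 (95% interval -0.11 to 0.02, adjusted p = 0.32).

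B2M (chromosome 15, 44711358 to 44718851), the shared light chain, was at 1772, 1663 and 1721 FPKM in HMC-1.1, 1792, 1745 and 1755 in HMC-1.2, 1836, 1821 and 1762 in clone 1 and 2157, 2086 and 1989 in clone 2. The first 3 groups overlapped, and clone 2 lay above them. B2M was higher in clone 2 than in HMC-1.2 by 0.21 on the log2 scale (SE 0.04, adjusted p = 2e-04) and than in clone 1 by 0.23 (SE 0.04, adjusted p = 8.2e-05). In clone 1 it differed from HMC-1.2 by -0.02 (95% interval -0.10 to 0.06, adjusted p = 0.67). The value for HMC-1.1 against HMC-1.2, -0.09 (SE 0.04, adjusted p = 0.043), passed the threshold narrowly and lost it in 10 of 20 alternatives. By limma on FPKM it fell to -0.04 (adjusted p up to 0.45), and with a term for resent libraries the adjusted p was 0.086. The other 7 losses came from leaving out 1 library, namely replicates 2 and 3 of HMC-1.1, each replicate of HMC-1.2 and replicate 2 of either clone, with adjusted p up to 0.2.

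Heavy chain transcripts were compared with B2M within each library. The summed FPKM of HLA-B, HLA-C and HLA-E was 0.789 times that of B2M in HMC-1.2, and 0.681 times in HMC-1.1, 0.720 times in clone 1 and 0.699 times in clone 2. The log2 ratios of the 3 HMC-1.2 libraries, -0.36 to -0.33, lay above those of the other 9 libraries, -0.58 to -0.46. Taken singly, the ratio of HLA-E to B2M ran from 0.107 in clone 2 to 0.176 in HMC-1.2, while that of HLA-B to B2M was 0.338 in HMC-1.1, 0.355 in clone 1, 0.373 in HMC-1.2 and 0.379 in clone 2. HLA-C stood at 0.240 times B2M in HMC-1.2 and at 0.210 to 0.213 in the other groups. The libraries of clone 2 and HMC-1.2 did not overlap in the HLA-E and HLA-C ratios, and those of HLA-B did. No test was made of these ratios.

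TAP1 (chromosome 6, 32845209 to 32853816) encodes the transporter chain that, with the TAP2 chain, moves peptides across the membrane of the endoplasmic reticulum. It was at 29.1, 26.8 and 28.7 FPKM in HMC-1.1, 31.7, 30.8 and 33.0 in HMC-1.2, 30.2, 31.7 and 28.9 in clone 1 and 38.1, 37.9 and 36.0 in clone 2. All clone 2 libraries lay above all others. TAP1 was higher in clone 2 by 0.28 against HMC-1.2 (SE 0.04, adjusted p = 5.2e-06), by 0.40 against clone 1 (SE 0.04, adjusted p = 8.1e-08) and by 0.45 against HMC-1.1 (SE 0.04, adjusted p = 3.7e-08), all on the log2 scale. In clone 1 and HMC-1.1 it was lower than in HMC-1.2, with log2 fold changes of -0.12 (adjusted p = 0.0081) and -0.17 (adjusted p = 0.00082). The clone 1 call was lost by limma on FPKM, with TAP1 at -0.07 (adjusted p = 0.21).

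TAP2 (chromosome 6, 32821833 to 32838739) moved least of the 9. Its libraries held 144, 142 and 141 CPM in HMC-1.1, 146, 140.1 and 147 in HMC-1.2, 147, 148 and 149 in clone 1 and 155, 152 and 157 in clone 2. Clone 2 exceeded the other groups by log2 differences of 0.08 (HMC-1.2, adjusted p = 0.034), 0.10 (clone 1, adjusted p = 0.01) and 0.13 (HMC-1.1, adjusted p = 0.0019), each with an SE of 0.03. The first of these was lost without replicate 2 of HMC-1.2 (adjusted p = 0.16) and without replicate 1 or 3 of clone 2 (adjusted p = 0.088 and 0.1). In FPKM the TAP2 libraries of all groups overlapped, from 29.5 to 37.2, and on that scale limma called none of the 3 differences of clone 2, from HMC-1.2 (0.09, adjusted p = 0.41), clone 1 (0.12, adjusted p = 0.25) or HMC-1.1 (0.11, adjusted p = 0.36). The first was also lost with no filter on low counts (adjusted p = 0.096). All 12 TAP2 counts were fractional, and its span overlaps a further annotated protein-coding gene on the same strand with 4.84 CPM.

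PSMB8 (chromosome 6, 32840717 to 32844679) and PSMB9 (chromosome 6, 32844136 to 32859851) encode catalytic subunits that replace PSMB5 and PSMB6 in the immunoproteasome. PSMB8 was at 128, 117 and 129.6 FPKM in HMC-1.1, 121, 114 and 116 in HMC-1.2, 132, 131 and 123 in clone 1 and 154, 152 and 142 in clone 2. Clone 2 lay above all other libraries, and HMC-1.1 overlapped both HMC-1.2 and clone 1. Clone 2 exceeded HMC-1.2 by 0.31 on the log2 scale (SE 0.05, adjusted p = 5.7e-05), and clone 1 differed from HMC-1.2 by 0.07 (95% interval -0.04 to 0.17, adjusted p = 0.24), a PSMB8 difference that passed by limma on FPKM (0.13, adjusted p = 0.032). PSMB9 was at 54.6, 47.2 and 52.3 FPKM in HMC-1.1, 48.9, 47.7 and 47.4 in HMC-1.2, 59.7, 55.8 and 55.3 in clone 1 and 61.7, 67.1 and 58.8 in clone 2. Both clones lay above HMC-1.2, by log2 fold changes of 0.33 in clone 2 (SE 0.06, adjusted p = 0.00028) and 0.19 in clone 1 (SE 0.06, adjusted p = 0.016). The clone 1 value did not pass without replicate 3 of HMC-1.2 (adjusted p = 0.06) or replicate 1 of clone 1 (adjusted p = 0.088). Between the clones the PSMB9 difference was 0.14 (95% interval 0.01 to 0.27, adjusted p = 0.06), and 6 of 20 alternatives brought it past the threshold (lowest adjusted p = 0.021). In the annotation PSMB9 overlaps PSMB8, TAP1 and the antisense gene PSMB8-AS1 (10.9 CPM), and whether the counting used strand is not given in the sources used here, so reads in the shared stretches are uncertain.

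Most genes of the constitutive proteasome were lower in clone 1 and in HMC-1.1 than in HMC-1.2. Of 14 constitutive 20S proteasome genes, 13 were lower in clone 1 than in HMC-1.2 and 0 were higher (median log2 fold change -0.31), where 29.3% of all genes were lower and 30.1% higher. HMC-1.1 also had 13 and 0 (median -0.22), against 26.5% and 27.2% of all genes. In clone 2, 6 were lower and 2 higher (median -0.08), against 23.8% and 24.7% of all genes, and these 8 fell to between 2 and 5 when any library of HMC-1.2 or clone 2, or replicate 1 of clone 1, was left out. PSMB5 fell by 0.42 in clone 1 (SE 0.04, adjusted p = 4.9e-08) and by 0.10 in clone 2 (SE 0.04, adjusted p = 0.038) against HMC-1.2. PSMB6 fell by 0.30 and 0.17, and PSMB7 by 0.33 and 0.17, on the same scale. Between the clones, 13 of the 14 were higher in clone 2 and 0 lower (median 0.22), against 24.7% and 25.5% of all genes. Compared with HMC-1.1, 12 were higher in clone 2 and 0 lower (median 0.16), against 18.5% and 17.5% of all genes. The 9 class I presentation genes had medians of 0.23 and 0.3 in the same comparisons. None of the 14 passed 1.5-fold in any of the 6 comparisons.

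Within libraries, the FPKM ratio of PSMB8 to PSMB5 was 0.833 in HMC-1.2, 1.19 for clone 1, 1.12 for clone 2 and 1.06 for HMC-1.1. The ratio of PSMB9 to PSMB6 was 0.278 in HMC-1.2, 0.390 for clone 1, 0.396 for clone 2 and 0.348 for HMC-1.1. The 3 HMC-1.2 libraries were below the other 9 in both ratios. Against HMC-1.2 the log2 ratio of PSMB8 to PSMB5 differed by 0.51 for clone 1, 0.43 for clone 2 and 0.35 for HMC-1.1, and that of PSMB9 to PSMB6 by 0.49, 0.51 and 0.32. Each of these reached p = 0.1 in an exact two-sided permutation test of 3 against 3 libraries, the smallest p that the design allows, and 0.164 after adjustment over 18 comparisons. The third pair, PSMB10 to PSMB7, ranged from 0.457 in HMC-1.2 to 0.498 in clone 1, with libraries of HMC-1.2, HMC-1.1 and clone 2 overlapping.

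**Figure D3:**
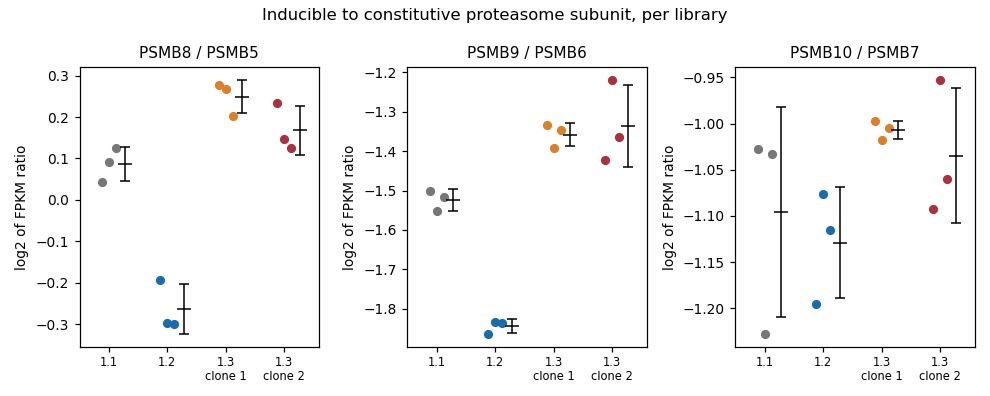
Log2 ratio of the FPKM of each inducible proteasome subunit to that of its constitutive partner, per library (points), with mean and SD (black) for each group. HMC-1.2 is lowest for PSMB8 / PSMB5 (-0.30 to -0.19) and PSMB9 / PSMB6 (-1.86 to -1.83), and for PSMB10 / PSMB7 the groups overlap apart from clone 1 against HMC-1.1 and HMC-1.2.

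NLRC5 (chromosome 16, 56989485 to 57083531) had the lowest level and, between the clones, the largest change of the 9. It was at 5.25, 6.22 and 5.81 FPKM in HMC-1.1, 6.22, 7.75 and 7.88 in HMC-1.2, 6.08, 5.82 and 6.91 in clone 1 and 9.20, 9.46 and 9.05 in clone 2, on 550 to 1032 counts a library. Clone 2 lay above all other libraries, and the other groups overlapped in part. NLRC5 was higher in clone 2 by 0.34 against HMC-1.2 (SE 0.06, adjusted p = 9.7e-05) and by 0.53 against clone 1 (SE 0.06, adjusted p = 9.7e-07), a 1.44-fold difference. Against HMC-1.1 the difference was also 0.53 from counts (adjusted p = 1.8e-06), and from FPKM it was 0.68 on the log2 scale with a pseudocount of 0.1, over 1.5-fold. Clone 1 and HMC-1.1 had the same estimate against HMC-1.2, -0.18 (SE 0.06), with adjusted p = 0.014 and 0.016. Both calls were lost without replicate 3 of HMC-1.2 (-0.14, adjusted p = 0.078 and 0.092), and also without replicate 2 of clone 1 (adjusted p = 0.073) and replicate 2 of HMC-1.1 (adjusted p = 0.062), respectively. The NLRC5 call for clone 1 was also lost by limma on FPKM (adjusted p = 0.11).

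Among 15 factors known to act on class I promoters, 5 were higher and 4 lower in clone 2 than in HMC-1.2 (median 0.00), near the 24.7% and 23.8% of all genes, and none passed 1.5-fold in any comparison. IRF1, an interferon-induced activator of class I genes, had the largest difference of the list from HMC-1.2. IRF1 was at 29.7, 30.3 and 32.1 FPKM in HMC-1.1, 29.7, 27.4 and 29.7 in HMC-1.2, 34.0, 32.5 and 31.4 in clone 1 and 42.1, 45.6 and 41.4 in clone 2. Clone 2 again lay above all other libraries, by 0.58 on the log2 scale against HMC-1.2 (SE 0.04, adjusted p = 7.7e-09), just under 1.5-fold, and by 0.43 against clone 1 (SE 0.04, adjusted p = 4.3e-07). Leaving out replicate 1 or 3 of HMC-1.2 or of clone 2 brought 1 gene of this list past 1.5-fold.

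Upstream of these factors, 8 interferon receptor, kinase and inhibitor genes were examined. Against HMC-1.2, 5 were lower and 2 higher in clone 1, where 29.3% of all genes were lower and 30.1% higher. In clone 2 as in HMC-1.1 there were 4 lower and 1 higher, against 23.8% and 24.7% of all genes in clone 2 and 26.5% and 27.2% in HMC-1.1. The 5 of clone 2 fell to 3 without replicate 2 of HMC-1.2 or replicate 3 of clone 2. IFNGR2, a chain of the interferon gamma receptor, was at 13.7, 12.3 and 14.8 FPKM in HMC-1.1, 21.6, 19.7 and 20.6 in HMC-1.2, 12.5, 14.1 and 12.5 in clone 1 and 16.2, 16.9 and 15.6 in clone 2. The 3 HMC-1.2 libraries lay above all others. Against them it fell by 0.71 on the log2 scale in clone 1 (SE 0.07, adjusted p = 5.1e-08) and by 0.40 in clone 2 (SE 0.06, adjusted p = 4.4e-05), and for HMC-1.1 it also fell by 0.71 (SE 0.06, adjusted p = 6.6e-08). SOCS1, an inhibitor of cytokine receptor signaling, fell by 0.62 in clone 1 and by 0.20 in clone 2 on the log2 scale (SE 0.07, adjusted p = 5.9e-07 and 0.021). Of the 3 PRC2 subunit genes, which encode a repressor complex that can act on class I genes, SUZ12 was lower in clone 1 by -0.18 (SE 0.04, adjusted p = 0.00088) and 0 passed in clone 2.

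The peptide loading and trimming genes included differences of over 1.5-fold. Of 7 such genes, 5 were lower in clone 1 than in HMC-1.2 and 0 higher (all genes, 29.3% and 30.1%), and in clone 2 the counts were 2 lower and 3 higher (all genes, 23.8% and 24.7%). CANX, a chaperone of newly made heavy chains, was at 93.0, 93.5 and 91.8 FPKM in HMC-1.1, 211, 197 and 201 in HMC-1.2, 90.2, 91.9 and 86.7 in clone 1 and 104, 104 and 107 in clone 2. The HMC-1.2 libraries lay far above the rest. Against them CANX fell by 1.24 in clone 1 (SE 0.03, adjusted p = 1.1e-15), by 0.95 in clone 2 (SE 0.03, adjusted p = 3.2e-14) and by 1.13 in HMC-1.1 (SE 0.03, adjusted p = 3.3e-15) on the log2 scale. CALR, the chaperone of the peptide loading complex, fell by 1.01 in clone 1 (SE 0.04, adjusted p = 1.7e-13) and by 0.17 in clone 2 (SE 0.04, adjusted p = 0.00051). Both proteins also serve many other glycoproteins. Between the clones, 7 of 7 genes of this list were higher in clone 2 (all genes, 24.7%), CALR by 0.83 (SE 0.04, adjusted p = 6.2e-12). Of the 3 further inducible proteasome genes, PSME2, a subunit of the PA28 activator, was higher in clone 2 than in HMC-1.2 by 0.19 (SE 0.04, adjusted p = 0.0017) and than in clone 1 by 0.35 (SE 0.04, adjusted p = 4.2e-06). PSME2 was lower in clone 1 than in HMC-1.2 by -0.16 (SE 0.04, adjusted p = 0.0046). PSME1, its partner in PA28, passed in none of the 6 comparisons, and PSMB10 differed from HMC-1.2 by 0.01 in clone 2 (adjusted p = 0.95) and -0.11 in clone 1 (adjusted p = 0.098).

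Of 9 further class I and class I-like heavy chain genes, 8 were tested. Between the clones, 4 were higher and 2 lower in clone 2, against 24.7% and 25.5% of all genes. HLA-F was higher in clone 2 than in HMC-1.1 by 0.62 (SE 0.07, adjusted p = 3.9e-06) and than in HMC-1.2 by 0.19 (SE 0.07, adjusted p = 0.036). HFE, a regulator of iron uptake with a class I fold, was higher in clone 2 than in clone 1 by 0.62 (SE 0.14, adjusted p = 0.0012). FCGRT, the heavy chain of the neonatal Fc receptor, rested on few counts, 34, 20 and 20 in HMC-1.1, 2, 8 and 5 in HMC-1.2, 25, 32 and 31 in clone 1 and 9, 16 and 17 in clone 2. It was higher in clone 1 than in HMC-1.2 by 2.32 (SE 0.43, adjusted p = 0.00018) and lower in clone 2 than in clone 1 by -1.17 (SE 0.36, adjusted p = 0.013). Between the clones, FCGRT and HFE were the 2 of this list past 1.5-fold, and 1 of these calls was lost without replicate 2 of clone 1 or replicate 1 of clone 2.

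**Figure D4:**
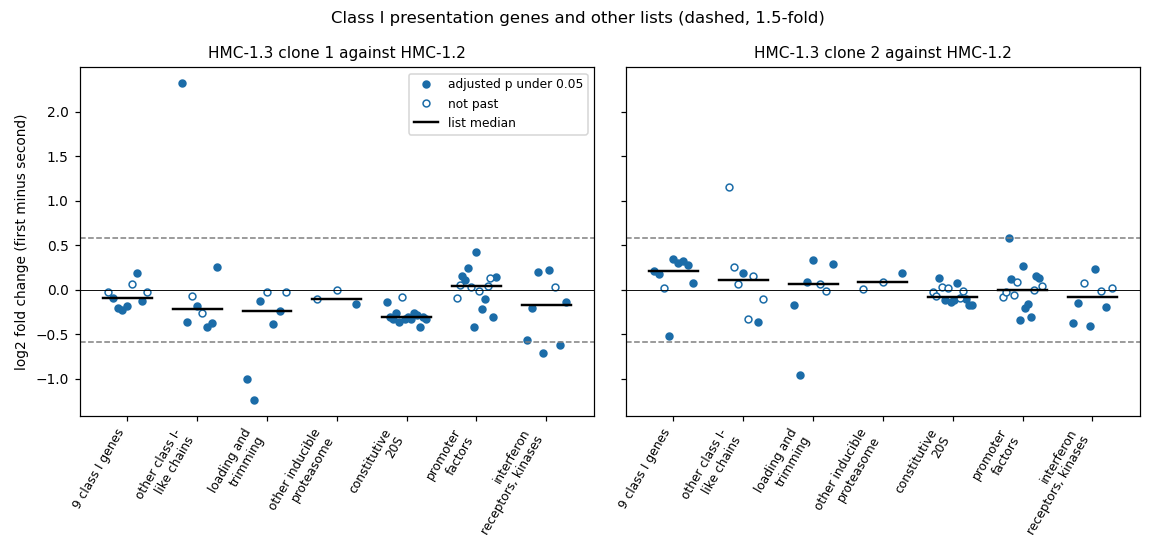
Log2 fold change of each gene (points, in alphabetical order within a list) against HMC-1.2 for clone 1 (left) and clone 2 (right), by list; filled points passed an adjusted p of 0.05, bars are list medians and dashed lines mark 1.5-fold. The 9 genes have medians of -0.10 and 0.21, and the 2 points lowest in the loading list of clone 1 are CANX and CALR.

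Of the 9 genes, 7 lie in the MHC region of chromosome 6, taken here from HLA-F to KIFC1 (29722775 to 33409896). The 134 other tested genes of this region had a median log2 fold change of -0.05 in clone 2 against HMC-1.2, with 24 higher and 35 lower. In clone 1 the median was -0.01, with 30 higher and 50 lower. Of all genes tested, 24.7% were higher and 23.8% lower in clone 2, and 30.1% and 29.3% in clone 1. Between the clones, 33 of these 134 genes were higher and 33 lower in clone 2 (median -0.01). Of the 7 class I presentation genes there, 5 were higher and 1 lower (median 0.23), against 24.7% and 25.5% of all genes. B2M and NLRC5, on chromosomes 15 and 16, were also higher in clone 2.

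Across the 12 libraries, log2 CPM of TAP1 and NLRC5 had a Pearson correlation of 0.96, those of HLA-B and HLA-C 0.92 and those of PSMB8 and PSMB9 0.90. HLA-E correlated with the other 8 genes at -0.52 to 0.29. These correlations are descriptions, since the points share the group structure and library depth. Among 10887 genes whose mean reached 5 CPM, the pattern nearest to TAP1 was that of MBD1 (r = 0.986), to NLRC5 that of VGF (0.969), to HLA-E that of SLC39A11 (0.991), to B2M that of SH3GLB1 (0.974) and to PSMB8 that of PPT1 (0.969). For TAP2 and PSMB9 the nearest were TMEM70 (0.942) and UTP4 (0.939). SIGLEC5 was nearest to HLA-B (0.971) and to the mean standardised pattern of the 9 genes (0.977), followed for the latter by MTFR2, MFNG, PTP4A2 and PTGS1 (0.976 to 0.953).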

How the data were processed

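RNA-seq of 12 cultures of HMC-1 sublines was used, with groups taken from the sample labels. The processing that the authors ran was trimming (Cutadapt 2.10), alignment to hg38 (STAR 2.5.3) against a Gencode annotation and marking of duplicates (Picard). They deposited RSEM 1.3.0 expected counts per gene, not normalized, and deposited FPKM values, in which library size and transcript length are divided out. Of the counts above 0, 20.6% were not whole, and counts were rounded. Whether the counting used strand is not given in the sources used here.

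Counts were tested with edgeR 4.0.16 (R 4.3.3): TMM, filterByExpr, 4 groups in 1 quasi-likelihood model, Benjamini-Hochberg adjustment over 15944 genes. Genes were called at adjusted p under 0.05 and over 1.5-fold. The SE is the log2 fold change divided by the root of F. Subunit ratios were compared in FPKM with exact permutation tests (scipy 1.17.1). Positions came from Gencode 44 on GRCh38, matched by identifier (99.0%).

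The members, the gene lists and the tests were chosen with earlier results of these data known. Of each list, the text names at most 4 genes called in any comparison, by largest log2 fold change, or otherwise the gene with the largest difference from HMC-1.2, and the proteasome partners. For likeness it names the gene with the highest Pearson correlation with each member and the 5 nearest to their mean. Markers were the lists of 10 mast cell genes and 12 genes of other cells. The methods were tested on simulated data.

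Alternatives were DESeq2 1.42.0, RLE size factors, no filter, a model of the compared groups alone, a replicate block, a term for resent libraries, limma 3.58.1 on log2(FPKM + 1) and log2(FPKM + 0.1), leaving out each library and, for ratios, FPKM + 1 and counts scaled by library size. Total counts were 29225900 to 43181402 a library, and no pair of libraries within a group differed by less than the sampling noise. Pairs from different groups were not checked in this way. Counts, not FPKM, give the differences unless stated. The gene nearest in pattern to HLA-C and 1 gene of the promoter factor list are not reported here.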

Additional observations from a re-analysis of the deposited data

Results flagged for a closer look

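The clones, which share a KIT genotype by the study's design, differed from each other in 8 of the 9 genes by edgeR's quasi-likelihood test of clone 2 against clone 1 over all genes, a comparison in which 24.7% of all genes were higher and 25.5% lower. On the log2 scale clone 2 minus clone 1 was 0.53 for NLRC5, 0.40 for TAP1, 0.28 for HLA-B, 0.24 for PSMB8, 0.23 for HLA-C, 0.23 for B2M and 0.10 for TAP2, all higher in clone 2, and -0.29 for HLA-E. The adjusted p-values ran from 8.1e-08 for TAP1 to 0.01 for TAP2. None of these differences reached 1.5-fold. For TAP2 the difference did not pass the threshold when tested on log2(FPKM + 1) (0.12, adjusted p = 0.25).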

How the results depend on the processing

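Each fold change of the 9 genes in the 6 comparisons was recomputed under 20 alternatives, 1080 values in all. Of these, 1024 kept their direction and their side of the threshold, 38 lost the threshold, 10 gained it and 8 changed sign. All 8 lay in differences that had not passed. The 1024 include NLRC5 in clone 1 against HMC-1.1, which had no direction to keep. Its difference rounded to 0 and ranged from -0.049 to 0.12 over the alternatives. B2M in clone 1 against HMC-1.2 became 0.034 under both limma tests on FPKM and ranged from -0.048 to 0.003 when libraries were left out. PSMB8 in HMC-1.1 minus HMC-1.2 ranged from -0.004 to 0.085 when libraries were left out and reached 0.093 over the 20 alternatives. PSMB9 in that comparison ranged from -0.027 to 0.097, and PSMB8 in clone 1 against HMC-1.1 from -0.02 to 0.076. TAP2 in clone 1 against HMC-1.1 became -0.013 with log2(FPKM + 1) and -0.014 with log2(FPKM + 0.1). Under either limma test, 1 of the 9 genes (NLRC5) passed 1.5-fold in clone 2 against HMC-1.1, against 0 with edgeR, and 1 passed the adjusted p in clone 1 against HMC-1.1, against 2. The cause was not tested. The replicate numbers paired the cultures at most in part. Same-number correlations were -0.28 to 0.33, with 9 of 18 over 0.1, and 7 of 12 libraries were nearest their own number. Pairs of replicate 1 correlated at 0.15 to 0.25, those of replicate 2 at -0.28 to 0.08 and those of replicate 3 at -0.15 to 0.33. With a replicate block, the genes past the adjusted p were 6 and 8 for clones 1 and 2 and 6 for HMC-1.1 when compared with HMC-1.2. They were 2 and 8 for the clones against HMC-1.1 and 8 between the clones. All these counts equal those without the block. The median of all genes stayed between -0.028 and 0.06 under these settings. With 3 cultures a group and 1 line of cells in each, the values describe these cultures.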
